A study of Homo sapiens with 48 samples.

Results

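The genes described here encode the proteins of the cytosolic ribosome and their paralogues. A gene was taken when its only symbol in the platform annotation was an RPL, RPS, RPLP or RPSA name, and its probe set of highest mean exceeded log2 4 in at least 3 arrays. Of 59 genes with such a symbol, 56 passed, 35 of the large and 21 of the small subunit, out of 11356 genes tested. RPL36A, RPL3L, whose protein is known from heart and skeletal muscle, and RPLP2 did not pass, with highest values in any array of log2 4.18, 3.40 and 3.32. RPL36A was read by 1 probe set of its own and RPLP2 by 2. Whether these read the main transcript was not tested, so the low values do not show that the genes were silent. Just inside the threshold was RPL10L, a paralogue known from the testis, with a mean of log2 5.66 and all 48 arrays above it. A further 15 genes with ribosomal symbols, among them RPL4, RPL5 and RPS3A, lay only on probe sets annotated with several symbols and were not analysed here, nor were RPLP0 and RPSA.

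The arrays measured RNA of HK-2, a line of immortalised cells from the proximal tubule of the human kidney, in 16 groups of 3 arrays that the labels call biological replicates. All groups were grown in medium with EGF, hydrocortisone, insulin and transferrin. The groups were CsA for 12 h and 48 h with vehicle at each time, Fk and Ra for 12 h and 48 h with shared vehicle arrays at each time, and Nnm (high dose or low dose) for 24 h and 48 h, again with shared vehicle arrays at each time. The labels place all 4 compounds in a class called Tox 1, give lab 3 for the 12 arrays of the CsA set, and give no full compound names or concentrations. Whether the replicates came from separate cultures is not stated beyond the word biological, so the p-values measure the spread between these arrays.

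Ribosomal proteins surround the ribosomal RNA core of a large and a small subunit and are made in near equal amounts. Their mRNAs are among the most abundant of a growing cell, and most begin with a run of pyrimidines, the TOP tract. The mTOR kinase pathway acts through this tract, mainly on translation of these mRNAs and not on their amount. Paralogues such as RPL22L1, RPL39L and RPS27L can take the place of their parent proteins in some ribosomes or act elsewhere in the cell.

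The epithelial genes KRT8, KRT18, KRT19, EPCAM and PAX8 were above log2 9.9 in all arrays, while the proximal tubule genes LRP2, CUBN, AQP1, ANPEP and SLC34A1 stayed under log2 4 in all arrays. CDH1, an epithelial cadherin, ranged from log2 2.94 to 9.66 with a median of 6.95, and GGT1, an enzyme of the tubule's brush border, from 3.83 to 4.91. These 2 and the first 5 were the 7 of 13 epithelial and tubule markers that passed the low filter. Of markers of other cells, 3 of 7 for fibroblasts (COL1A1, DCN and LUM), 1 of 5 for endothelium (PECAM1, with a median of log2 4.36) and 0 of 6 for leukocytes passed the low filter. The medians of COL1A1, DCN and LUM were log2 8.20, 10.85 and 9.94. Ra 48 h replicate 2 had the lowest upper quartile of signal, log2 6.20, followed by Fk 12 h replicate 3 with 6.85, and the other 46 arrays had 6.91 to 7.24. The difference between 3′ and 5′ control probe sets of ACTB, a measure of RNA integrity, was 0.97 to 1.44 in the Fk and Ra set and 0.71 to 1.20 in the others.

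The mRNAs of the ribosomal proteins changed little as deposited in the 10 comparisons of treated with vehicle cells, and for Ra at 48 h this depended on the scaling. Their median log2 change lay between -0.05 (Ra at 48 h) and 0.05 (Nnm high dose at 24 h). With every array centred on its median it was 0.20 for Ra at 48 h, with 7 members called. The share of all genes called with that scaling is not given here. As deposited, a member was called at an adjusted p under 0.05 (limma, Benjamini-Hochberg over 11356 genes) in 4 of 560 changes. Of the changes of all genes 7.3% were called, with Ra 48 h replicate 2 included. The 4 calls of members concerned RPL22L1 and RPL29 in Ra-treated cells at 48 h and RPL39L in cells given either dose of Nnm for 48 h. The fit did not pair replicates, and pairing those of the Nnm set by number added calls with the high dose. The levels are deposited log2 values of bulk RNA, in which a lower level per cell and fewer cells with the transcript cannot be told apart.

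**Figure D1:**
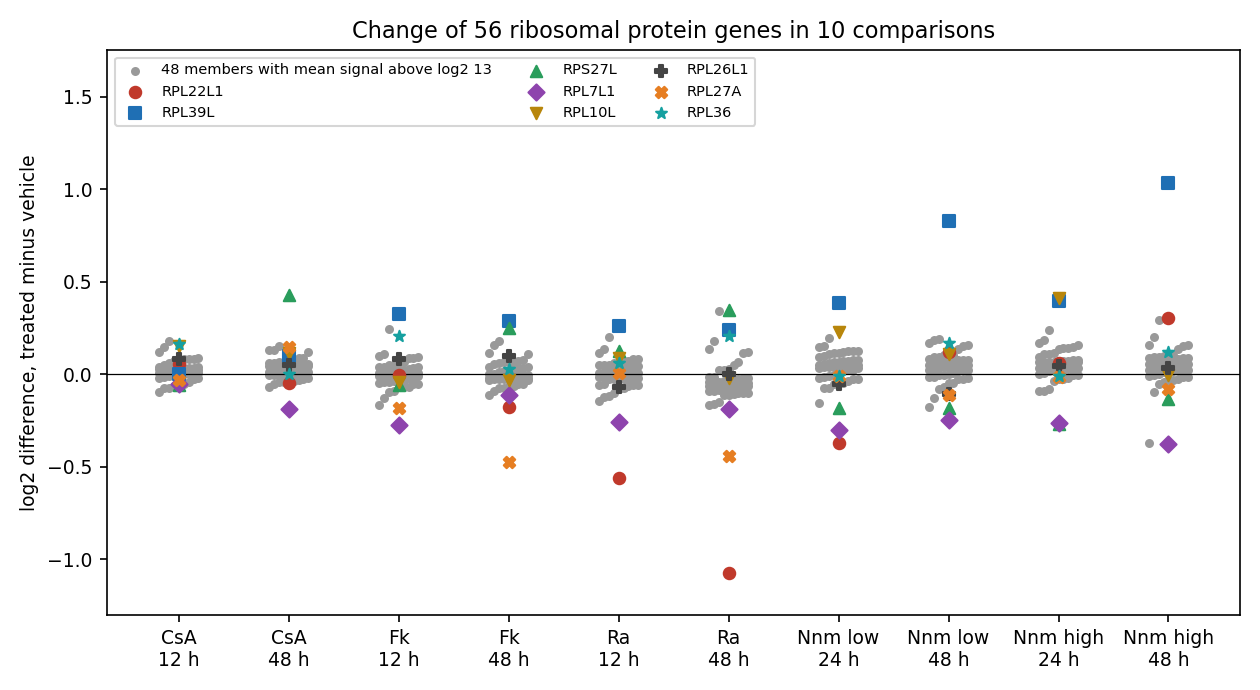
Log2 difference of each of 56 ribosomal protein genes, treated minus vehicle (vertical axis), in 10 comparisons (horizontal axis, 3 arrays per group). Grey points are the 48 members with a mean signal above log2 13, which lie between -0.37 and 0.34. Coloured symbols are the other 8, of which RPL22L1 reaches -1.07 in Ra at 48 h and RPL39L 1.03 in the high dose of Nnm at 48 h.

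In 48 members the mean signal of the best probe set exceeded log2 13, near the top of the range of the arrays, whose highest value was 16.11. For these 48, 474 of 480 changes (98.8%) were smaller than 0.2, and the range was -0.37 for RPL3 in the high dose of Nnm at 48 h to 0.34 for RPL29 in Ra at 48 h. With centred arrays 448 of 480 were smaller than 0.2, including 22 of the 48 for Ra at 48 h, and the range was -0.44 to 0.59. The median SE of a change was 0.09, and the 95% intervals of single changes reached from -0.66 to 0.56. The stalk protein RPLP1, which binds elongation factors, changed by -0.07 to 0.20 over the 10 comparisons and RPL12, at the base of the stalk, by -0.05 to 0.09. RPL11, which with the 5S RNA can bind the p53 regulator MDM2, changed by -0.06 to 0.15. RPS6, the small-subunit protein phosphorylated downstream of mTOR, changed by -0.05 to 0.18. None of these 4 genes was called in any of the 10 comparisons as reported. Without the low filter RPLP1 was called with the high dose of Nnm at 48 h (0.20, adjusted p = 0.0498).

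High signal and small change went together on these arrays. The median absolute change of all 56 members was 0.03 to 0.07 over the 10 comparisons, against 0.05 to 0.20 for the 209 other genes with a mean above log2 13 and 0.09 to 0.37 for all genes. Among all 101 probe sets of the members, the median absolute change was 0.05 for the 62 with a mean above log2 14, 0.10 for the 13 between 10 and 14, and 0.15 for the 26 under 10. Calls were 1 of 620, 5 of 130 and 9 of 260 changes in these bands. Deviations from the group means of the 48 highly expressed members moved together from array to array. Their median pairwise correlation was 0.48 over 48 arrays, against 0.17 for the 209 other genes above log2 13, and 0.37 against 0.08 without Ra 48 h replicate 2. These points share the arrays and their normalization.

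A TOP tract was looked for at the annotated start of each gene, as a C at the first base followed by at least 4 bases that are all C or T, on the gene's own strand (RefSeq, GRCh38.p14). Of the 49 members with an entry, 33 (67.3%) held it, against 691 of 9370 tested genes (7.37%). It was held by 30 of 42 highly expressed members (71.4%) and by 3 of 7 of the others (42.9%), and by all 11 with an entry among a list of other mRNAs known to carry the tract, such as that of the elongation factor EEF2. Of the mitochondrial ribosomal proteins, made from nuclear genes for the other ribosome of the cell, 7.58% held one. Members without an entry were RPL7, RPL8, RPL23A, RPL30, RPL37, RPL39L and RPS15A. The windows below, of 20 bases before and 20 from the annotated start, are those of the paralogues and parents whose values are described next and of RPL29 and RPL3, with the tract in capitals where the rule found it.
RPL22L1: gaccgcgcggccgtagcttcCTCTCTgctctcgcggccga
RPL22: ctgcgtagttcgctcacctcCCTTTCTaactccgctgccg
RPL29: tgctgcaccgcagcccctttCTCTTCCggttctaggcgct
RPL39: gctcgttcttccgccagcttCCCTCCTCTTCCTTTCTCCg
RPS27: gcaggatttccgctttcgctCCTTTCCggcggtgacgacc
RPS27L: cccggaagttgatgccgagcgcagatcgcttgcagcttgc
RPL7L1: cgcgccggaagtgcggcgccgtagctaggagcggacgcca
RPL3: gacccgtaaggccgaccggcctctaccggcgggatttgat
They lie at chr3:170870176-170870215 (RPL22L1, minus strand), chr1:6199576-6199615 (RPL22, minus), chr3:51995876-51995915 (RPL29, minus) and chrX:119791611-119791650 (RPL39, minus). The others lie at chr1:153990742-153990781 (RPS27, plus), chr15:63157458-63157497 (RPS27L, minus), chr6:42879596-42879635 (RPL7L1, plus) and chr22:39319604-39319643 (RPL3, minus). RPL22L1 and its parent RPL22 both begin with a tract, of 6 and 7 bases, and RPL39 with one of 19. RPS27L and RPL7L1 begin with other bases, and RPL3 has a run of 4 pyrimidines, 1 short of the rule. No tract in this window says only that these letters are not there.

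In CsA-treated cells no member was called at 12 h, where limma called 0% of all genes, or at 48 h, where it called 1.02%. At an unadjusted p under 0.05 there were 0 members at 12 h and 1 at 48 h. The members' median changes were 0.02 and 0.04, and those of all genes -0.01 and 0.00. The values of the 3 CsA arrays were all above the 3 vehicle arrays for 5 members at 12 h (3.25% of all genes) and all below for 2 (3.09%). At 48 h the counts were 2 (7.8% of all genes) and 1 (6.45%). At 12 h RPS6 differed by 0.18 ± 0.10, RPL29 by 0.15 ± 0.11 and RPL22 by -0.10 ± 0.10 (SE; adjusted p = 1 for each).

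After 48 h of CsA the largest difference was that of RPS27L, a paralogue of RPS27 that is a known target of p53. Its log2 values were 11.66, 12.19 and 12.49 in CsA-treated cells and 11.62, 11.66 and 11.77 in vehicle cells. Of the CsA arrays, 2 were above and replicate 1 lay within the vehicle range, so the groups overlapped. The difference of 0.43 ± 0.17 missed the test (limma adjusted p = 0.26) and without CsA 48 h replicate 1 it was 0.66 and called (adjusted p = 0.0259). RPS27 itself differed by 0.02 ± 0.09 (adjusted p = 0.991). RPL11 and RPL8 came next, with 0.15 ± 0.10 and 0.13 ± 0.09 (adjusted p = 0.644 and 0.68).

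In Fk-treated cells no member was called at either time, and limma called 0% of all genes at 12 h and 0% at 48 h. Members at an unadjusted p under 0.05 numbered 1 at 12 h and 0 at 48 h. The members' median was 0.00 at 12 h and -0.01 at 48 h, beside 0.02 for all genes at both times. Fk arrays were all above vehicle for 2 members at 12 h (9.29% of all genes) and for 2 at 48 h (6.18%), and all below for 2 (6.49%) and 1 (3.89%). At 12 h RPL29 differed by 0.24 ± 0.11, RPL7L1 by -0.27 ± 0.14 and RPL39L by 0.33 ± 0.20 (adjusted p = 0.772, 0.798 and 0.896). At 48 h RPL27A, read by a probe set of low mean, differed by -0.47 ± 0.27, RPL29 by 0.18 ± 0.11 and RPL22 by 0.16 ± 0.10 (adjusted p = 1 for each).

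In Ra-treated cells no member was called at 12 h, where 0.0704% of all genes were, with 1 member at an unadjusted p under 0.05. At 48 h 2 were called, against 18.5% of all genes, 337 of these genes higher and 1769 lower. That share, also used below, includes Ra replicate 2, whose median over all genes lay at -0.59 against vehicle. The share without that array is not given here. RPL22L1 fell and RPL29 rose. Ra arrays were all above vehicle for 6 members at 12 h (17.2% of all genes) and all below for 4 (15%). At 48 h these counts were 2 (5.11%) and 3 (17.2%).

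RPL22L1 can substitute for RPL22 in the large subunit, and in mice its amount rises when Rpl22 is lost. At 48 h its log2 values were 11.67, 10.84 and 11.64 in Ra-treated cells and 12.56, 12.71 and 12.10 in vehicle cells. All 3 Ra arrays were below all 3 vehicle arrays, and Ra replicate 2, whose upper quartile was low, had the lowest value. RPL22L1 fell by 1.07 ± 0.24 on the log2 scale (95% interval -1.55 to -0.60, limma adjusted p = 0.00201), to 0.475 times the vehicle level. It was called in each of the 6 fits that left out 1 array of these groups and missed the threshold when only the compared groups were fitted (adjusted p = 0.286). Over all alternatives the difference was -1.25 to -0.80.

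At 12 h RPL22L1 stood at 11.40, 11.31 and 11.33 in Ra-treated cells, against 11.89, 11.90 and 11.92 in vehicle cells. The groups did not overlap and each was tight. The difference of -0.56 ± 0.24 was not called over all genes (limma adjusted p = 0.533). It was called with only the compared groups fitted (adjusted p = 0.0191) and, at -0.55, with array weights (adjusted p = 0.00055). The 48 h and 12 h differences were not shown to differ (-0.51 ± 0.33, adjusted p = 0.414). In Fk-treated cells it was at 12.18, 12.38 and 12.27 at 48 h, within the range of the vehicle arrays, and at 11.51, 11.53 and 12.66 at 12 h. Fk replicate 3 at 12 h, an array of the second lowest upper quartile, was far above the other 2 Fk arrays.

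Set directly against each other at 48 h, Fk-treated cells had more RPL22L1 than Ra-treated cells, by 0.90 ± 0.24 (adjusted p = 0.0084). It was the only member called, where 17.3% of all genes were. The call rests on Ra 48 h replicate 2: without it the difference was 0.62 (adjusted p = 0.13), and with centred arrays 0.61 (adjusted p = 0.0505). At 12 h the difference was 0.55 ± 0.24 (adjusted p = 0.581), no member was called (1 at an unadjusted p under 0.05) and 0.00881% of all genes were. The parent RPL22 differed from vehicle by 0.18 ± 0.10 in Ra-treated cells at 48 h (adjusted p = 0.197) and by -0.06 ± 0.10 at 12 h (adjusted p = 0.997). At 48 h RPL22 was called in other fits, at 0.43 with centred arrays (adjusted p = 0.00826), 0.31 with array weights (adjusted p = 0.0034) and 0.26 with the replicate block and without Ra replicate 2 (adjusted p = 0.0282).

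**Figure D2:**
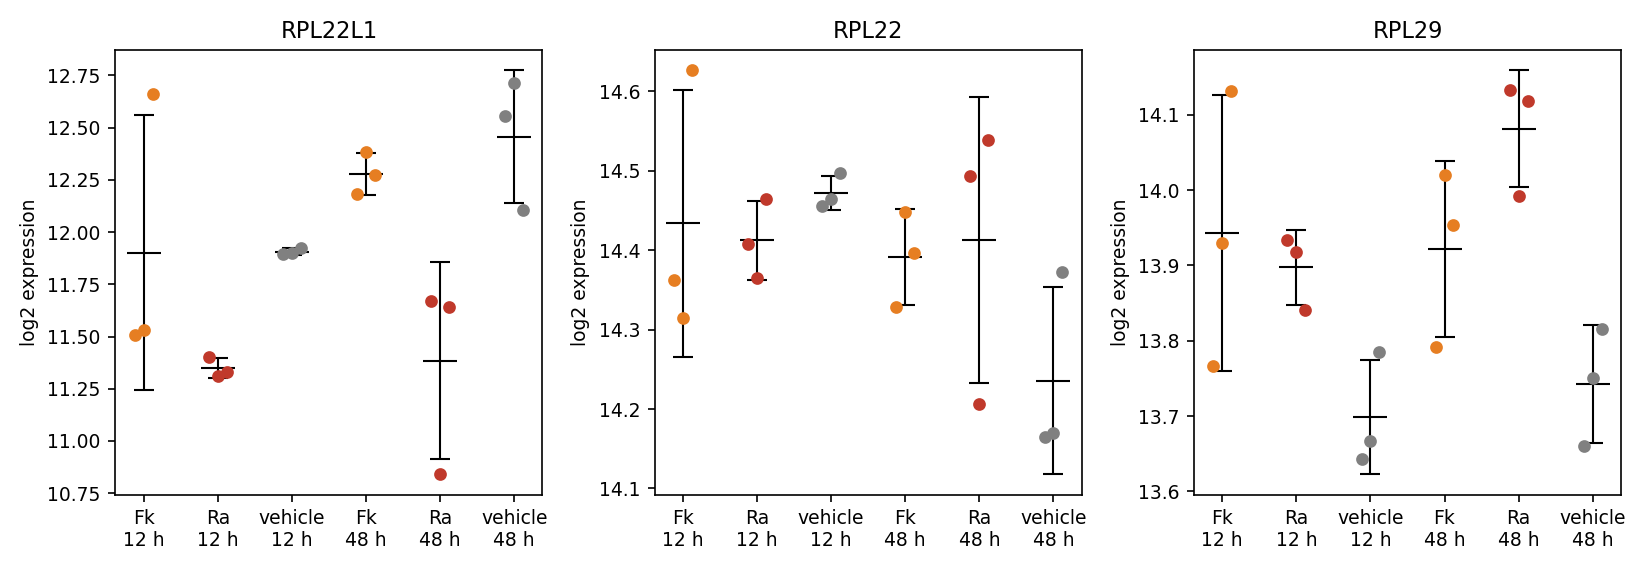
Log2 expression (vertical axis) of RPL22L1, RPL22 and RPL29 in each array (points) of the Fk (orange), Ra (red) and vehicle (grey) groups at 12 h and 48 h, with the mean and SD (n = 3) in black. RPL22L1 lies below vehicle in all 3 Ra arrays at both times, and RPL29 above vehicle in all 3.

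RPL29, a large subunit protein also described as a heparin-binding protein, stood at 14.13, 13.99 and 14.12 in Ra-treated cells at 48 h and at 13.66, 13.75 and 13.82 in vehicle cells. The groups did not overlap. RPL29 rose by 0.34 ± 0.11 (adjusted p = 0.0264), or 1.27 times, and its second probe set rose by 0.51 ± 0.13 (adjusted p = 0.00724). The call was less stable than that of RPL22L1. It was made in 2 of the 6 fits that left out 1 array and missed without vehicle replicate 1 or 2 or Ra replicate 1 or 3, and in 10 of 17 alternatives in all. RPL29 differed from vehicle by 0.20 ± 0.11 in Ra-treated cells at 12 h (adjusted p = 0.709). RPS27L came next at 48 h, with 12.22, 12.15 and 12.27 in Ra-treated cells against 11.93, 11.64 and 12.03 in vehicle cells, a difference of 0.35 ± 0.17 (adjusted p = 0.154). RPS27L was called at 0.60 with centred arrays (adjusted p = 0.032), 0.51 with quantile normalization (adjusted p = 0.0446) and 0.50 with array weights (adjusted p = 0.0153).

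The direction of the whole family in Ra-treated cells at 48 h depended on the scaling. The deposited values gave a members' median of -0.05, beside -0.18 for all genes, and 14 of 56 members were higher. With every array centred on its median 7 members were called, 6 of them higher. No share of all genes is given for that scaling. The members' median was then 0.20. With quantile normalization it was 0.02, and without Ra replicate 2 it was 0.06. In the mean of the 48 highly expressed members, that array was 0.22 below the vehicle arrays, with 3 of 48 members higher, while Ra replicates 1 and 3 were 0.04 and 0.08 above. The other 29 treated arrays ranged from -0.06 to 0.12.

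**Figure D3:**
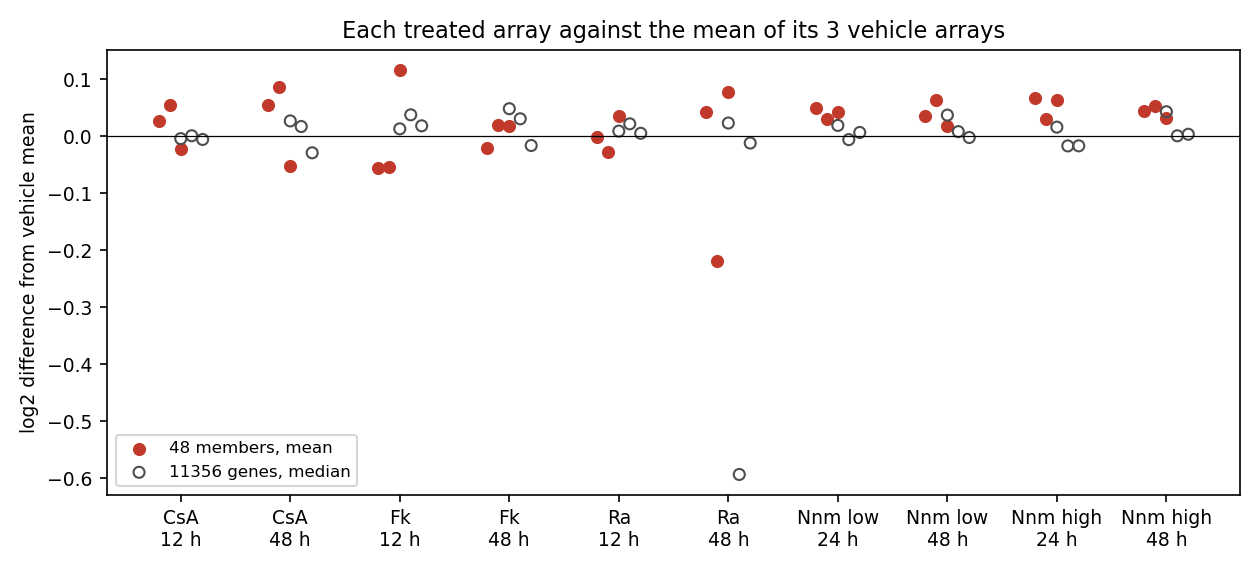
Difference of each treated array from the mean of the 3 vehicle arrays of its set and time, in log2 units (vertical axis), for 10 treated groups (horizontal axis, 3 arrays each). Filled points are the mean of 48 highly expressed ribosomal protein genes and open points the median of 11356 genes. Ra 48 h replicate 2 lies at -0.22 and -0.59, apart from all others.

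In Nnm-treated cells RPL39L rose at 48 h, and in the fit as reported the other members were not called. Some other fits called further members with or without pairing of replicates, such as RPL7L1 with the high dose at 48 h. At 24 h 0 members were called in cells given the low dose (8.29% of all genes) and 0 with the high dose (23.1%), with 1 and 1 at an unadjusted p under 0.05. At 48 h 1 was called with each dose, beside 5.22% and 16.8% of all genes. With the replicate number as a block, which pairs this set, RPL39L was called with the high dose at 24 h as well. With that block RPL3, RPL7L1 and RPS9 joined it with the high dose at 48 h. The members' medians were 0.04 to 0.05 in these 4 comparisons, which share vehicle arrays at each time, and those of all genes -0.01 to 0.02. In the mean of the 48 highly expressed members, the 12 Nnm arrays were 0.02 to 0.07 above their vehicle arrays.

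RPL39L is a paralogue of RPL39, a small protein at the exit of the large subunit's tunnel, and is known from male germ cells. At 48 h it stood at 9.91, 9.14 and 9.89 in cells given the high dose of Nnm, at 9.65, 8.97 and 9.71 with the low dose and at 8.64, 8.41 and 8.80 in vehicle cells. All Nnm arrays were above all vehicle arrays, and replicate 2 was the lowest of each group. RPL39L rose by 1.03 ± 0.20 with the high dose (95% interval 0.62 to 1.44, adjusted p = 0.000678), or 2.05 times, and by 0.83 ± 0.20 with the low dose (adjusted p = 0.0117), or 1.77 times. The high-dose call held in all 6 fits that left out 1 array and missed with only the compared groups fitted (adjusted p = 0.0697). The low-dose call held in 3 of 6, and missed without low-dose replicate 1 or 3 or vehicle replicate 2 (adjusted p up to 0.117).

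At 24 h RPL39L was at 9.57, 9.06 and 9.55 with the high dose, 9.49, 9.02 and 9.64 with the low dose and 9.06, 8.86 and 9.08 in vehicle cells. The ranges touched, since replicate 2 of each dose lay within the vehicle range. The differences were 0.40 ± 0.20 and 0.38 ± 0.20 (adjusted p = 0.156 and 0.248), and with the replicate number as a block the high dose was called. The effect at 48 h was not shown to differ from that at 24 h (high dose 0.64 ± 0.29, adjusted p = 0.743). High and low dose differed by 0.21 ± 0.20 at 48 h and 0.01 ± 0.20 at 24 h (adjusted p = 1 and 0.999). None of these tests between times or doses paired the replicates. By replicate number, RPL39L was higher with the high than the low dose in every pair at 48 h. At 24 h it was so in replicates 1 and 2 but not 3. No member was called between doses (0 at an unadjusted p under 0.05 at either time), where 0.00881% of all genes were at 24 h and 0.0176% at 48 h. The parent RPL39 stood at 15.22, 15.19 and 15.14 with the high dose at 48 h and at 15.13, 15.13 and 15.13 in vehicle cells, a difference of 0.05 ± 0.08 (adjusted p = 0.723).

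**Figure D4:**
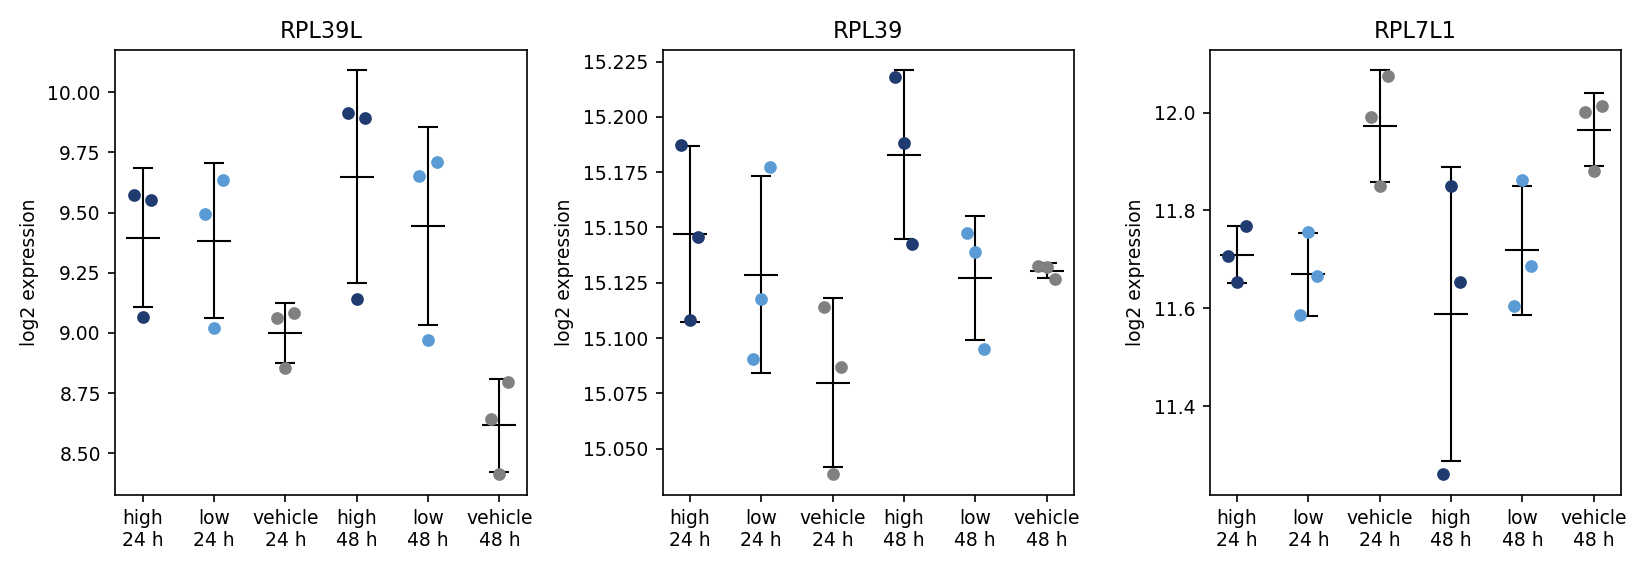
Log2 expression (vertical axis) of RPL39L, RPL39 and RPL7L1 in each array (points) of the Nnm high dose (dark blue), low dose (light blue) and vehicle (grey) groups at 24 h and 48 h, with the mean and SD (n = 3) in black. At 48 h all 6 Nnm arrays lie above the vehicle arrays for RPL39L and below them for RPL7L1; the RPL39 axis covers a much smaller range.

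RPL7L1, a relative of RPL7 whose yeast counterpart acts in assembly of the large subunit, came closest to a further call. At 48 h it stood at 11.26, 11.85 and 11.65 with the high dose of Nnm, 11.61, 11.86 and 11.69 with the low dose and 12.00, 11.88 and 12.01 in vehicle cells. Neither dose overlapped the vehicle arrays. The differences were -0.38 ± 0.14 (limma adjusted p = 0.0512) and -0.25 ± 0.14 (adjusted p = 0.314). The high-dose difference was called in other fits, at -0.44 with centred arrays (adjusted p = 0.0218) and -0.37 with quantile normalization (adjusted p = 0.0237). It was -0.51 without high-dose replicate 2 (adjusted p = 0.00957). It was also called without the low filter, with the mean of a gene's probe sets and with array weights (adjusted p = 0.0498, 0.0483 and 0.000309). In the other 8 comparisons its difference was -0.30 to -0.06 and was not called as reported. Array weights called RPL7L1 also with the low dose at 48 h, with either dose at 24 h and in Ra-treated cells at 12 h.

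RPL3, which reaches into the catalytic centre of the large subunit, was at 13.77, 14.20 and 13.86 with the high dose at 48 h and at 14.42, 14.29 and 14.26 in vehicle cells. These groups did not overlap either, and the difference was -0.37 ± 0.14 (adjusted p = 0.0658). RPS9, near the entry of the mRNA channel, was at 14.78, 14.51 and 14.71 with the high dose against 14.32, 14.36 and 14.44 in vehicle cells, a difference of 0.29 ± 0.12 (adjusted p = 0.0782). In the Nnm set the replicate numbers pair the arrays, and with them as a block RPL3 (adjusted p = 0.0132) and RPL7L1 (adjusted p = 0.0401) were called too, as was RPS9, for 4 members in all with RPL39L. RPS27 differed by 0.15 to 0.19 in the 4 Nnm comparisons (adjusted p from 0.162 to 0.311).

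As deposited, more non-overlapping members were higher than lower in Nnm-treated cells at 48 h. For the low dose the count of higher ones among the 56 members was near the share of all genes. With the high dose 16 members had all 3 arrays above vehicle (19.6% of all genes) and 2 below (16.4%), and with the low dose 12 (19.7%) and 2 (15.3%). At 24 h the counts were 13 (18.8%) and 4 (19.2%) with the high dose, and 8 (20%) and 5 (18%) with the low dose. The median change over the 56 members was 0.04 at 48 h in both doses, and -0.02 in both with centred arrays.

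The vehicle cells changed with time as well. RPL39L fell at 48 h against 12 h in the Fk and Ra set, to 7.89, 7.76 and 7.95 against 8.34, 8.38 and 8.68, a difference of -0.60 ± 0.20 (adjusted p = 0.0318). It was the only member called there, beside 19.8% of all genes. In the vehicle cells of the CsA set it differed by -0.50 ± 0.20 (adjusted p = 0.0916), with 0 members (5 at an unadjusted p under 0.05) and 13.7% of all genes called. In those of the Nnm set, 48 h against 24 h, it differed by -0.38 ± 0.20 (adjusted p = 0.831), with 0 members (0 at an unadjusted p under 0.05) and 0% of genes called. The 3 sets of vehicle arrays do not share arrays, and in each the later values were all below the earlier ones. With the replicate number as a block, which pairs the CsA set, 4 members were called in its vehicle cells: RPL3, RPL29, RPL39L and RPS9. RPL22L1 in vehicle cells differed by 0.55 ± 0.24 in the Fk and Ra set (adjusted p = 0.095), 0.42 ± 0.24 in the CsA set and -0.13 ± 0.24 in the Nnm set. The change of a treatment effect between times called no member for CsA, Fk, Ra, the low or the high dose of Nnm, where limma called 0%, 0%, 3.62%, 0% and 0.00881% of all genes. At an unadjusted p under 0.05 there were 1, 0, 1, 0 and 1 members in the same order.

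RPL10L ranged from -0.04 to 0.41 over the 10 comparisons, the upper end with the high dose of Nnm at 24 h (adjusted p = 0.231, or 0.0434 with only the Nnm set fitted). RPL26L1, a close relative of RPL26, ranged from -0.11 to 0.10. RPS27L differed by -0.27 to -0.13 in the 4 Nnm comparisons, none called.

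Other probe sets of the same genes did not always follow the best one. A further 45 probe sets of 27 members passed the filter, and 11 of their changes were called, in RPL29, RPL37, RPS21, RPS23, RPS24 and RPS27L. These 6 were singled out after their values were seen. A dim RPS27L probe set stood at 3.97, 5.23 and 4.58 with the high dose of Nnm at 24 h and at 6.23, 6.38 and 6.07 in vehicle cells, a fall of 1.63 ± 0.35 (the call over probe sets had adjusted p = 0.00148), where the best probe set differed by -0.27. The second RPS21 probe set rose by 0.91 ± 0.17 with the high dose at 48 h (adjusted p = 0.000438), while the best one stayed between -0.11 and 0.11 in all comparisons. A dimmer RPL37 probe set rose by 1.36 ± 0.44 and a dimmer RPS24 probe set fell by 1.54 ± 0.40 with the high dose at 24 h (adjusted p = 0.0243 and 0.00665). Which transcript each of these probe sets reads was not tested. Of the best probe sets of the 56 members, 29 carry the suffix _s_at, the maker's mark for probes shared between transcripts. A further 14 carry _x_at, its mark for probes that may also bind other sequences. Both probe sets of RPL29 and those of RPL3 and RPL7L1 carry _x_at.

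Some factors that build ribosomes were called lower in Nnm-treated and Ra-treated cells. Of 24 measured ribosome biogenesis factors, 12 fell with the high dose of Nnm at 24 h (median change -0.55), 9 with the low dose at 24 h (-0.66), 4 with the high dose at 48 h (-0.27) and 2 with the low dose at 48 h (-0.35), and none rose in these. Of all genes 23.1%, 8.29%, 16.8% and 5.22% were called in either direction, in the same order. The factors were called lower only, and genes called lower alone numbered 1421, 535, 895 and 278 of 11356 in that order. With the replicate number as a block the counts were 16, 16, 8 and 6, but the counts of all genes above come from the fit without it. BYSL, which acts in maturation of the small subunit, fell by 1.55 ± 0.24 with the high dose at 24 h (adjusted p = 4.67e-05). TSR1, also of the small subunit, fell by 1.45 ± 0.21 (adjusted p = 1.82e-05) and RRS1, of the large subunit, by 1.37 ± 0.28 (adjusted p = 0.000838). In Ra-treated cells LTV1, a factor of small subunit export, fell by 0.89 ± 0.16 at 12 h (adjusted p = 0.0153), where 0.0704% of all genes were called. At 48 h 8 of the 24 fell (median -0.39, beside 18.5% of all genes called), among them UTP15, RRP12 and PNO1. With centred arrays 3 fell and 1 rose (median -0.14), and without Ra replicate 2 there were 2, with a median of -0.22. In CsA-treated and Fk-treated cells none of the 24 was called.

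Of 74 mitochondrial ribosomal proteins, 37 fell with the high dose of Nnm at 24 h (median -0.45) and 20 at 48 h (-0.31). With the low dose 15 fell at 24 h (-0.35) and 4 at 48 h (-0.24), and none rose in these 4 comparisons. In either direction 23.1% and 16.8% of all genes were called with the high dose and 8.29% and 5.22% with the low dose. Genes called lower alone numbered 1421 and 895 of 11356 with the high dose and 535 and 278 with the low dose. The 4 of 74 at the low dose at 48 h lay near the 5.22% called in either direction, a share that also counts genes called higher. With the replicate number as a block 51 and 31 fell with the high dose (1 rose at 48 h) and 32 and 19 with the low dose. The shares of all genes above come from the fit without the block, and none is given here for the block. MRPL12, which also binds the mitochondrial RNA polymerase, fell by 1.80 ± 0.22 with the high dose at 24 h (adjusted p = 5.33e-06). In Ra-treated cells at 48 h 14 fell and 1 rose (median -0.26), a share close to the 18.5% of all genes, and without Ra replicate 2 there were 1 and 1, with a median of -0.05. With centred arrays the median there was -0.01. In CsA-treated cells 1 fell at 48 h, MRPS25, where 1.02% of all genes were called. In the fit as reported the cytosolic members had 0 calls at 24 h and 1 at 48 h with each dose of Nnm. The difference between the lists was not tested.

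**Figure D5:**
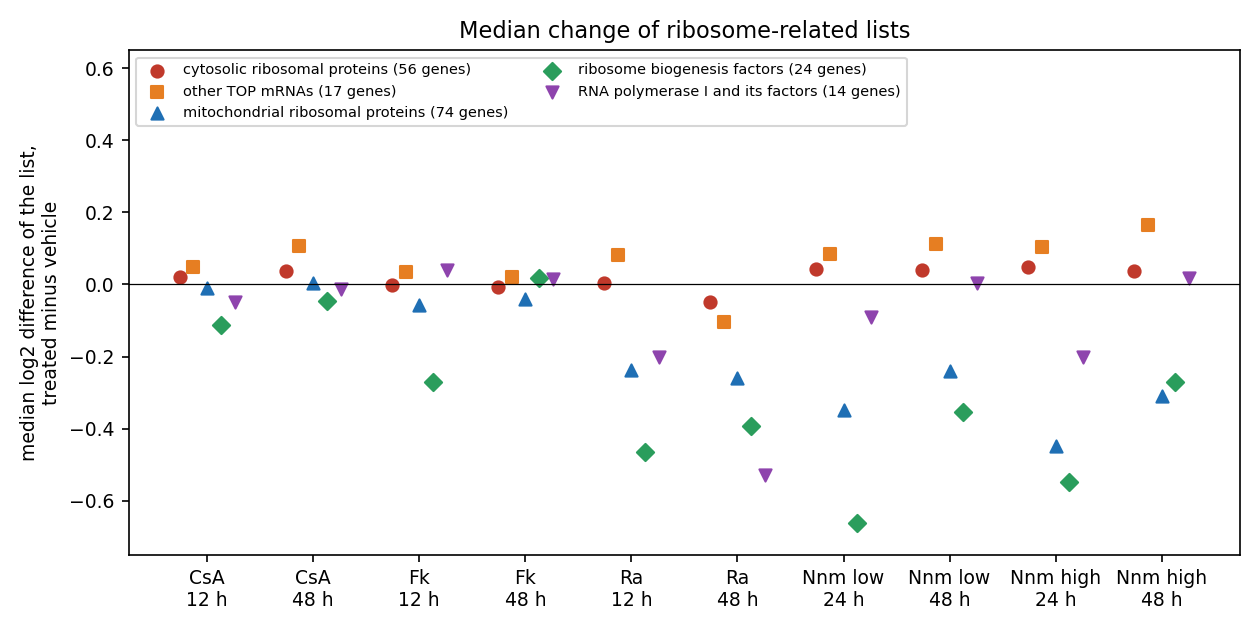
Median log2 change, treated minus vehicle (vertical axis), of 5 lists in 10 comparisons (horizontal axis). The 56 cytosolic ribosomal proteins (circles) stay between -0.05 and 0.05; ribosome biogenesis factors (diamonds) reach -0.66 and mitochondrial ribosomal proteins (triangles) -0.45 with Nnm at 24 h. In Ra at 48 h the medians include the array of low upper quartile.

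RNA polymerase I, which makes the ribosomal RNA precursor, and its factors were measured by 14 genes. POLR1D, a subunit shared with RNA polymerase III, rose in all 4 Nnm comparisons (at 24 h 23.1% of all genes were called with the high dose and 8.29% with the low dose, and at 48 h 16.8% and 5.22%), by 1.80 ± 0.31 with the high dose at 48 h (adjusted p = 0.000212). POLR1A, POLR1B and POLR1C fell with the high dose at 24 h, POLR1A by 1.84 ± 0.44 (adjusted p = 0.00311). In Ra-treated cells at 48 h, where 18.5% of all genes were called, 6 of the 14 fell, among them TAF1A, POLR1H and RRN3, and without Ra replicate 2 none was called. The 17 other TOP mRNAs had medians of -0.10 (Ra at 48 h, or 0.15 with centred arrays) to 0.16, and 4 of them were called with the high dose of Nnm at 48 h, beside 16.8% of all genes. HNRNPA1, NAP1L1 and EEF1D rose and EIF3K fell, with HNRNPA1 higher by 0.97 ± 0.34 (adjusted p = 0.0451). FAU and the other measured ribosomal gene with another kind of name were not called in any treatment comparison.

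Of 16 regulators of ribosomal protein mRNAs, 3 were called in Ra-treated cells at 48 h, a share close to the 18.5% of all genes. EIF4EBP1, a translation repressor that mTOR phosphorylates, fell by 1.23 ± 0.27 (adjusted p = 0.00226) and RPS6KB1, a kinase of RPS6, by 0.79 ± 0.26 (adjusted p = 0.0345), while EIF4EBP2 rose by 0.67 ± 0.16 (adjusted p = 0.00324). Without Ra replicate 2 there were 1 higher and 1 lower, and the list's median was 0.12 in place of -0.18. With the high dose of Nnm, GABPA, a transcription factor of many ribosomal protein promoters, rose by 1.16 ± 0.29 at 24 h (adjusted p = 0.0048), and RPS6KB2 fell by 1.02 ± 0.23 (adjusted p = 0.00201). The counts were 4 higher and 1 lower at 24 h (23.1% of all genes called) and 2 higher and 1 lower at 48 h, close to the 16.8% of all genes.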

How the data were processed

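Log2 values of 48 arrays were deposited, made by the authors with GCRMA per the submitters' processing notes (version not given in the sources used here), and used without further scaling. GCRMA normalizes between arrays, which can reduce a shift of most genes, but the deposited arrays did not share 1 distribution, with upper quartiles of 6.20 to 7.24. Depth has no meaning for arrays, and 3 arrays per group limit the precision. Of 54675 probe sets, 62 controls were set aside, 41091 had 1 gene symbol, 1801 several and 11721 none listed. The best of a gene's probe sets above log2 4 in 3 arrays gave 11356 genes.

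All arrays entered 1 limma fit (3.58.1, lmFit and eBayes, under R 4.3.3) that gave each group its mean, and 22 contrasts were tested two-sided at a Benjamini-Hochberg adjusted p under 0.05 over all genes. Errors of differences are SE. Per treatment comparison up to 8 called members each way were named, or the 3 of largest statistic where fewer than 3 were called, besides fixed paralogues, parents and stalk proteins, and up to 3 called genes each way of a partner list. The members and all lists were chosen with earlier results of these data known. Same-numbered arrays correlated above 0.1 in 18 of 18 pairs of the CsA set and 45 of 45 of the Nnm set, which were taken as paired, but in 19 of 45 of the Fk and Ra set. The alternatives were other scalings, filters, probe set rules, array weights, smaller fits, a replicate block and arrays left out. The procedure was tested on simulated data.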

Additional observations from a re-analysis of the deposited data

Results flagged for a closer look

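RPL22L1 differed between Fk-treated and Ra-treated cells at 48 h, by 0.90 on the log2 scale (limma adjusted p = 0.0084), which compares the effects of both compounds against the same vehicle arrays. Without Ra 48 h replicate 2 it was 0.62 (adjusted p = 0.13).

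In 3 further cases every array of a treated group lay on one side of the vehicle mean at the later time and on the other at the earlier one, and the test of the change of effect was not passed. The effect of Fk on RPS27 at 48 h minus that at 12 h was -0.12 (adjusted p = 0.999). The effect of Ra on RPL39 at 48 h minus that at 12 h was -0.28 (adjusted p = 0.165). The effect of the low dose of Nnm on RPL22L1 at 48 h minus that at 24 h was 0.49 (adjusted p = 1).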

How the results depend on the processing

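No member's call changed sign among the alternatives run, and 224 of 288 counts of called members stayed within 1.5 times the reported count. Shares of all genes called under these alternatives are not given here. With centred arrays the counts were 7 for Ra and 3 for Fk minus Ra at 48 h, and 2 for the high dose of Nnm at 48 h. With quantile normalization they were 2 for the high dose at 24 h and 2 at 48 h, and 3 in the vehicle cells of the CsA set and 3 of the Fk and Ra set between times. Without the low filter they were 3 for the high dose at 48 h, 1 for the change of the Ra effect, and 2 and 3 in those vehicle cells. With the mean of a gene's probe sets they were 3 and 3 for the high dose at 24 h and 48 h, and 1 and 2 in the vehicle cells. Without _x_at and _s_at probe sets, which leaves fewer members, they were 1 for Ra at 48 h, 1 and 2 for the low dose, 4 and 4 for the high dose, and 2 and 2 in the vehicle cells. The replicate block gave 1 and 4 for the high dose at 24 h and 48 h and 4 in the vehicle cells of the CsA set, where numbers pair the arrays, and 2 in those of the Fk and Ra set, where they do not; it moved no other count by over 1.5 times.

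Array weights gave counts of 1 and 4 for Fk, 5 and 6 for Ra, 8 and 5 for the low dose, 13 and 8 for the high dose (earlier and later time), 1 between doses at 24 h, 4 for Fk minus Ra at 48 h, 2, 3 and 1 for the change of the Fk, Ra and high-dose effects, and 4 and 11 in the vehicle cells of the CsA set and of the Fk and Ra set; the cause was not tested. Fitting a set alone gave 0 for the low dose at 48 h, 1 for the high dose at 24 h, 1 for Ra and 0 for Fk minus Ra at 48 h. Fitting only the compared groups, with fewer arrays, gave 1 for Ra at 12 h and 0 for Ra, both doses of Nnm and Fk minus Ra at 48 h. Leaving out 1 array gave 0 to 1 for CsA at 48 h (RPS27L, without CsA replicate 1), 0 to 1 for the low dose at 48 h, 0 to 1 for the high dose at 24 h (without high-dose replicate 2), 1 to 4 for the high dose at 48 h (4 without high-dose replicate 2) and 1 to 2 for Ra at 48 h. Without Ra 48 h replicate 2, an alternative added after seeing the data, Fk minus Ra at 48 h gave 0, also when centred or with the block, and Ra at 48 h gave 1 when centred. The signal near the top of the arrays' range and 3 arrays per group limit what small changes of most members could be seen.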
